A study of Mus musculus with 3 samples.

Results

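The secreted TGF-beta and activin proteins, their binding proteins and their target genes were followed in the mouse preosteoblast line MC3T3-E1, labelled as derived from C57BL/6 calvaria. The set held 9 genes of the 18193 named on the array. These were the TGF-beta ligands Tgfb1, Tgfb2 and Tgfb3, the activin subunits Inhba and Inhbb, the latent TGF-beta binding proteins Ltbp1 and Ltbp2, and the target genes Tgfbi and Skil. All probe sets whose single gene symbol was one of these were used, 21 in all. A probe set is the group of short oligonucleotides on the array that reads one stretch of a transcript. The cells had spent 3 days at 37 °C in 1 of 3 media. The first held 0.6% DMSO, the solvent dimethyl sulfoxide, in osteogenic medium, which is MEM α and 10% fetal bovine serum (FBS) supplied with beta-glycerophosphate at 10 mM and ascorbic acid 2-phosphate at 150 µM. The second was osteogenic medium without DMSO, and the third, called normal medium, was MEM α and 10% FBS alone. Each medium had 1 array and no replicate, so no test was possible, the spread between cultures is unknown, and all statements below describe these 3 arrays.

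TGF-beta is made as a precursor and stays bound to its own cleaved propeptide. Latent TGF-beta binding proteins tie this complex to the extracellular matrix, and bone matrix is a large store of it. Activins are dimers of the inhibin beta subunits that Inhba and Inhbb encode. Both kinds of ligand signal through receptor kinases to the transcription factors Smad2 and Smad3. In bone, TGF-beta is known to recruit and expand osteoblast precursors and to restrain their late maturation.

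Upstream sequences are shown for the genes whose differences are described first below. Tgfb1 and Tgfb2 are ligands of one family that differed in opposite directions, Inhba and Inhbb were both higher in osteogenic medium, and Tgfbi was high on 1 array only. Each is the 250 bases before the RefSeq gene start on the gene's own strand, from GRCm38.p6. The windows lie at chr7:25686752-25687001 (plus strand) for Tgfb1, chr1:186705990-186706239 (minus strand) for Tgfb2, chr13:16011601-16011850 (plus strand) for Inhba, chr1:119422249-119422498 (minus strand) for Inhbb and chr13:56609336-56609585 (plus strand) for Tgfbi. Capitals mark matches to 5 motifs on either strand, namely the Smad box CAGAC, the AP-1 site TGACTCA, the cAMP response element TGACGTCA, the TATA box TATAAA and the GC box GGGCGG.
Tgfb1: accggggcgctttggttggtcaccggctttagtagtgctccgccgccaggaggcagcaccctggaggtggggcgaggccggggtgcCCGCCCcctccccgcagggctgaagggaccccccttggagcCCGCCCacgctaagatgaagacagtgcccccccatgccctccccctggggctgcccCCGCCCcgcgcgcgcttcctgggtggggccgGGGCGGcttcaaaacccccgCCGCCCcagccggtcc
Tgfb2: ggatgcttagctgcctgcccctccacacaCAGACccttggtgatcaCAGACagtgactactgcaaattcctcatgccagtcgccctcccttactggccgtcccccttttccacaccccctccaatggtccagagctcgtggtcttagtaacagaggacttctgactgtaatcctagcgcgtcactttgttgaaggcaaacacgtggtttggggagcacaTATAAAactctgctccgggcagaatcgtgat
Inhba: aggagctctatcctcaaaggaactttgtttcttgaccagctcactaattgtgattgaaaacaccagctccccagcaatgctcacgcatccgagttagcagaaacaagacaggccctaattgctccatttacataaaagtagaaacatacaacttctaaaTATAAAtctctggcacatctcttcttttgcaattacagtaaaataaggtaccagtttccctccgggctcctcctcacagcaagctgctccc
Inhbb: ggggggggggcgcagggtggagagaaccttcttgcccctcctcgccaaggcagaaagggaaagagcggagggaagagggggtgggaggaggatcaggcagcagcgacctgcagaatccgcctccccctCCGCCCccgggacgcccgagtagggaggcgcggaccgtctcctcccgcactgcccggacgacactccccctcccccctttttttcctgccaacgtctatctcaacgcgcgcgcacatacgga
Tgfbi: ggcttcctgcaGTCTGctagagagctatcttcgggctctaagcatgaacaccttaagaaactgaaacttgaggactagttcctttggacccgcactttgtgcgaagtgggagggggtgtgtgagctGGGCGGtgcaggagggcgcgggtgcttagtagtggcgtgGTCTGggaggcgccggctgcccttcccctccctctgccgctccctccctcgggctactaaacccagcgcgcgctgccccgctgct
Of the 9 genes, 7 matched an entry of the RefSeq promoter table, with 8 promoters. Tgfb3 and Skil had none. The Tgfb1 window held 5 GC boxes and none of the other motifs, and 75.2% of its bases were G or C, against a median of 52.4% over 32851 promoters. The Tgfb2 window held a TATA box and 2 Smad boxes. Inhba had a match to the TATA box in a window of 43.2% G or C, while Inhbb had a GC box in one of 68.0%. The TATA match of Inhba lay at bases -91 to -86 from the gene start, and that of Tgfb2 at -31 to -26. Tgfbi had 2 Smad boxes and a GC box. Among all promoters of the same length, 42.2% held the Smad box, 32.7% the GC box, 12.4% the TATA box, 4.46% the AP-1 site and 1.55% the cAMP response element. No capital stretch in these 5 windows overlaps another. These matches are descriptions of the letters and were not set against the expression values.

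The arrays were close to one another across all probe sets, at a Pearson r of 0.998 between the 2 osteogenic media and 0.997 between osteogenic medium without DMSO and normal medium. The deposited values were read as log2 from their range. The sources used here do not give the log base, and every fold below rests on that reading. The median of all values, 3.54, served as a floor under which a level was treated as not measured. The values are also coarse: 37.4% of all probe sets had the same value on all 3 arrays. Each of the 9 genes exceeded the floor on 1 array or more, and 8 did so on all 3 with their brightest probe set. Of the 21 probe sets, 15 were above it on all arrays, 5 on none and 1 on some. Each gene is given by its brightest probe set, and the others stand beside it. The 1 repeat measure is the agreement between probe sets. Over 5180 genes, the differences shown by the 2 brightest probe sets of a gene scattered about each other with an SD of 0.18 log2 units for osteogenic minus normal medium and 0.15 for osteogenic medium with DMSO minus osteogenic medium. That covers probes and leaves out cultures.

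**Figure D1:**
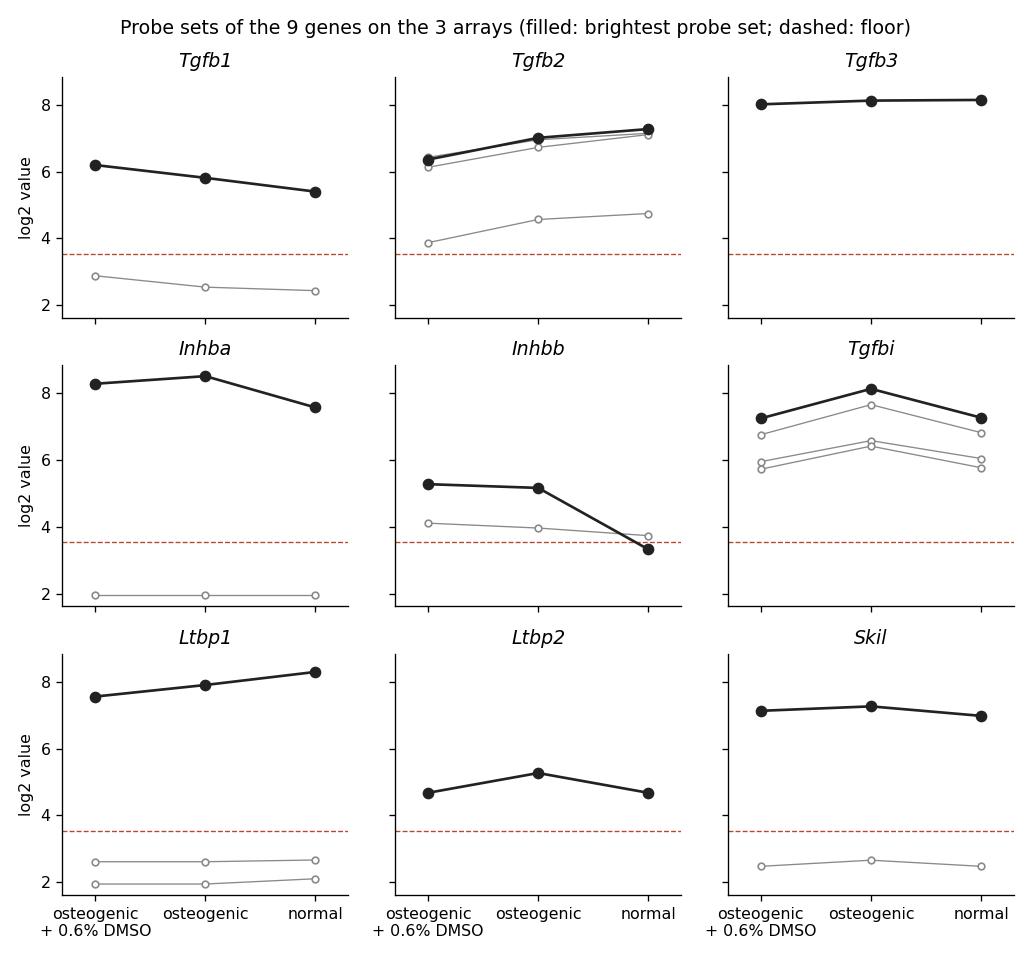
Log2 value (vertical axis) of every probe set of the 9 genes on the array of osteogenic medium with 0.6% DMSO, of osteogenic medium and of normal medium (left to right). Filled points are the brightest probe set of a gene, open points its other probe sets, and the dashed line is the floor of 3.54. Tgfb1 steps down and Tgfb2 and Ltbp1 step up towards normal medium, while Tgfbi and Ltbp2 peak in osteogenic medium.

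Among the TGF-beta ligands, Tgfb1 and Tgfb2 differed between media in opposite directions and Tgfb3 hardly differed. Tgfb1 encodes the form most abundant in bone matrix. Its log2 level was 6.20 in osteogenic medium with DMSO, 5.81 in osteogenic medium and 5.40 in normal medium. It was thus highest with DMSO and lowest in normal medium, in 2 steps of nearly equal size. Osteogenic medium stood 0.41 log2 units (1.33-fold) above normal medium, and DMSO a further 0.38 (1.30-fold) above osteogenic medium. Across both steps the difference was 0.80, or 1.74-fold. Its other probe set, with levels of 2.88, 2.54 and 2.43 in the same order of media, was under the floor on every array and measured nothing by this rule. To place these sizes, 3.93% of the 11417 genes above the floor in osteogenic or normal medium were higher in osteogenic medium by as much as Tgfb1. With DMSO the share was 1.22% of 11423 genes.

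Tgfb2, a ligand expressed in skeletal and other mesenchyme, ran the other way. Its log2 level was 6.36 in osteogenic medium with DMSO, 7.01 in osteogenic medium and 7.27 in normal medium. The larger step came with DMSO, at -0.65 (1.57-fold lower), and osteogenic against normal medium stood at -0.26. DMSO medium against normal medium came to -0.91, or 1.88-fold lower. All 4 Tgfb2 probe sets were above the floor on every array, and all 4 had this order of media. Their differences ran from -0.69 to -0.53 for DMSO within osteogenic medium and from -0.38 to -0.18 for osteogenic against normal medium. Of these, 3 carry the same source sequence in the annotation, so they are not independent readings. The fourth has another source sequence and lay at 3.87, 4.56 and 4.74, dim but in the same order. Its level with DMSO, near the floor, was a value held by 411 probe sets on that array, and this probe set gave the -0.69. Tgfb3, the ligand known for its part in palate closure, had levels of 8.01, 8.13 and 8.15 in osteogenic medium with DMSO, osteogenic and normal medium. Its differences of -0.11 with DMSO and -0.02 with osteogenic medium were smaller than the scatter between probe sets.

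The activin subunits were both higher in osteogenic than in normal medium. With DMSO, Inhba was somewhat lower than in osteogenic medium without it, and Inhbb hardly differed. Inhba encodes the subunit of activin A. Its log2 level was 8.29 in osteogenic medium with DMSO, 8.52 in osteogenic medium and 7.58 in normal medium. Both osteogenic arrays were thus above the normal one. Osteogenic minus normal medium was 0.94 (1.92-fold), just short of the 2-fold used to count a gene, and 0.569% of the 11417 genes were higher by as much. With DMSO Inhba stood at -0.23 against osteogenic medium and remained 0.71 (1.64-fold) above normal medium. Its second probe set had the value 1.95 on all 3 arrays, under the floor, a value held by 1726 probe sets on the DMSO array, and so gives no second reading.

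Inhbb, which encodes the subunit of activin B, gave the widest range of the 9 genes. Its brightest probe set stood at 5.28 in osteogenic medium with DMSO, 5.17 in osteogenic medium and 3.33 in normal medium, where it was under the floor. Against that floor, this probe set was at least 3.09-fold higher in osteogenic than in normal medium, and at least 3.34-fold higher with DMSO. The bound depends on the floor, and with one at the 60th percentile the differences were 0.69 and 0.80 log2 units. The 2 osteogenic arrays differed by 0.11. Its second probe set gave a much smaller step, with levels of 4.11, 3.97 and 3.74 in the same order of media. It differed by 0.23 for osteogenic minus normal medium and by 0.15 for DMSO. Both probe sets were thus lowest in normal medium, while the size of the Inhbb rise rests on 1 probe set. The differences with DMSO were within the scatter between probe sets, so the order of the 2 osteogenic arrays is not resolved.

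The 2 latent TGF-beta binding proteins did not follow each other. Ltbp1, which anchors the latent complex in matrix, had a log2 level of 7.56 in osteogenic medium with DMSO, 7.91 in osteogenic medium and 8.30 in normal medium. It stepped down as Tgfb2 did, by -0.39 in osteogenic against normal medium and by -0.35 with DMSO, which together made -0.74 (1.67-fold lower with DMSO than in normal medium). The 2 other probe sets of Ltbp1, from 1.95 to 2.67, were under the floor on all arrays. Ltbp2, a matrix protein of elastic fibres that, unlike Ltbp1, does not bind latent TGF-beta, was read by 1 probe set. Its level was 4.68 in osteogenic medium with DMSO, 5.27 in osteogenic medium and 4.68 in normal medium. It was 0.59 (1.51-fold) higher in osteogenic than in normal medium and 0.59 lower with DMSO. The outer values were equal to the last deposited digit, a value shared with other probe sets, 90 in all on the DMSO array and 33 on the array of normal medium. A return to exactly the normal level is thus measured only to the coarseness of the table.

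Of the target genes, Tgfbi had the same shape with larger steps. It encodes a secreted matrix protein induced by TGF-beta that binds collagen and integrins. Its log2 level was 7.25 in osteogenic medium with DMSO, 8.14 in osteogenic medium and 7.27 in normal medium. Osteogenic medium was thus alone in its high level. The difference was 0.86 (1.82-fold) for osteogenic minus normal medium and -0.88 (1.85-fold lower) for DMSO within osteogenic medium. Only 0.884% of 11423 genes were lower with DMSO by as much. All 4 Tgfbi probe sets were above the floor on every array and peaked in osteogenic medium. They ranged from 0.54 to 0.86 in the first comparison and from -0.90 to -0.63 in the second. Between DMSO and normal medium they differed by -0.09 to -0.02. The brightest has a name ending in _s_at and 2 end in _x_at, which mark probes that may also bind other transcripts. The remaining one, with neither ending, read 5.96, 6.58 and 6.05 in the same order of media and gave the smallest steps, 0.54 and -0.63.

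Skil encodes SnoN, a corepressor that TGF-beta signalling first degrades and then induces, which makes it a feedback gene. Its level was 7.14 in osteogenic medium with DMSO, 7.27 in osteogenic medium and 6.98 in normal medium. Skil was, like Tgfbi, highest in osteogenic medium, but its level with DMSO was above that in normal medium. The differences of 0.28 and -0.13 were small, and the second was under the scatter between probe sets. Its other probe set was under the floor.

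The array of osteogenic medium is in both main comparisons with opposite signs. An error of that 1 array and a true peak in osteogenic medium cannot be told apart for Tgfbi, Ltbp2, Skil and the step of Inhba with DMSO. The comparison that leaves it out, DMSO against normal medium, gave -0.02 for Tgfbi, 0.00 for Ltbp2, 0.15 for Skil and 0.71 for Inhba. For Tgfb1, Tgfb2, Ltbp1 and Inhbb, the same comparison gave 0.80, -0.91, -0.74 and at least 1.74. It too has 1 array per medium, and an error of either array cannot be told apart from a difference between media. The low levels of Inhba and Inhbb in normal medium rest on the 1 array of that medium. Likewise, the low level of Tgfb2 with DMSO rests on the 1 DMSO array.

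**Figure D2:**
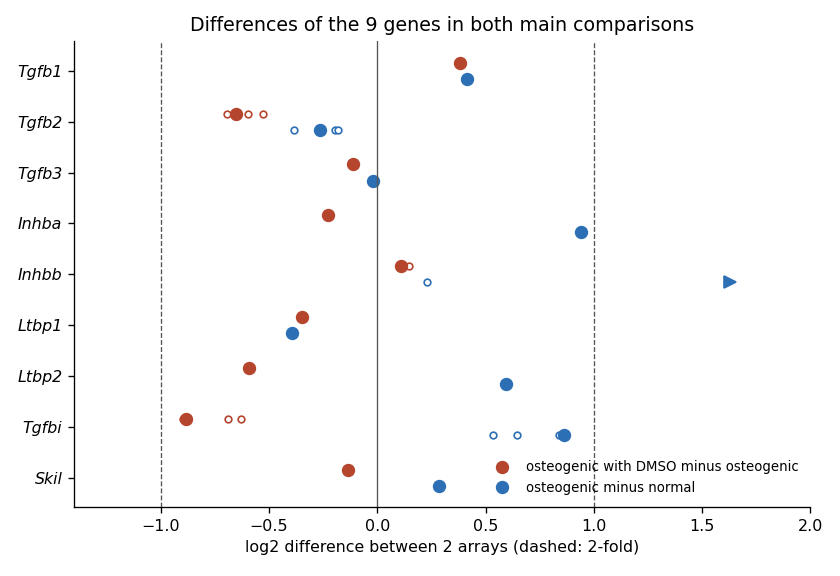
Log2 difference (horizontal axis) of each of the 9 genes for osteogenic medium with DMSO minus osteogenic medium (red) and for osteogenic minus normal medium (blue). Filled points are the brightest probe set, the triangle for Inhbb is a lower bound, open points are other probe sets above the floor on an array, and dashed lines mark 2-fold. Tgfb2 and Ltbp1 lie left of 0 in both comparisons, Tgfb1 and Inhbb right of 0 in both, and Inhba, Ltbp2, Tgfbi and Skil on opposite sides.

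Counted over the set, 1 of the 9 genes was at least 2-fold higher in osteogenic than in normal medium (Inhbb) and 0 were 2-fold lower. With the floor at the 60th percentile Inhbb stood at 0.69 and the count was 0, and its second probe set gave 0.23. Among all 18193 genes, 0.297% were 2-fold higher and 0.115% lower, with genes under the floor on both arrays counted as unchanged. These were 54 and 21 genes, all among the 11417 above the floor on either array. The 2-fold and 1.5-fold shares and backgrounds below are counted in the same way. In all 6 of the 9 were higher and 3 lower, with a median of 0.41 log2 units. The 11417 genes compared had a median of 0.00, with 36.5% higher and 38.7% lower. With DMSO, 0 of the 9 passed 2-fold in either direction, where 0.033% of all genes were 2-fold higher and 0.346% lower. Here 2 were higher, Tgfb1 and Inhbb, and 7 lower, with a median of -0.23 against 0.00. Of the 11423 genes compared, 40.5% were higher and 30.3% lower. Between DMSO and normal medium, Inhbb alone was at least 2-fold higher, with a background of 0.379%, though at 0.80 under the higher floor, and 0 were 2-fold lower, with a background of 0.841%. The median there was 0.00. At 1.5-fold, Inhba, Inhbb, Tgfbi and Ltbp2 were higher in osteogenic than in normal medium and 0 of the 9 lower, where 1.1% of all genes were higher and 1.01% lower. Tgfb2, Tgfbi and Ltbp2 were lower with DMSO and 0 higher, where 1.33% of all genes were lower and 0.22% higher. Between DMSO and normal medium, Tgfb1, Inhba and Inhbb were 1.5-fold higher against a background of 1.63%, and Tgfb2 and Ltbp1 lower against one of 2.63%. Since the genes were gathered with earlier results of these arrays known, these counts carry no weight as evidence about the pathway.

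**Figure D3:**
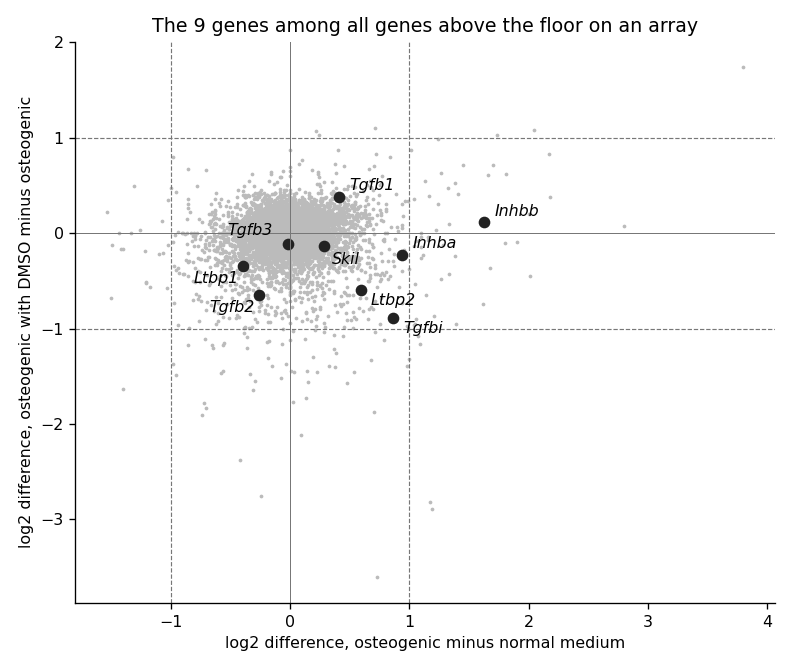
Log2 difference of osteogenic medium with DMSO minus osteogenic medium (vertical axis) against that of osteogenic minus normal medium (horizontal axis) for the 11462 genes that exceeded the floor on any array (grey), with the 9 genes in black. The axes share the array of osteogenic medium, and dashed lines mark 2-fold. Inhbb at 1.63 lies beyond the right line, Tgfbi at -0.88 lies just above the lower line, and Tgfb3 lies near the origin.

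The rest of the pathway was described from 6 lists with 69 genes, of which 64 had a probe set of a single symbol and 5 were not analysed here. In each main comparison, 53 were above the floor. Of these, 1 was at least 2-fold higher in osteogenic medium, 0 were 2-fold lower, and with DMSO 0 passed in either direction. Over all 53, 16 were higher, 30 lower and 7 equal in osteogenic against normal medium, and the median was -0.03. With DMSO, 16 were higher, 22 lower and 15 equal, and the median was 0.00. Of all genes compared, 36.5% were higher and 38.7% lower in osteogenic medium, and 40.5% were higher and 30.3% lower with DMSO.

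None of the other measured ligands differed by more than 0.10 in either main comparison. Of 11 listed, 5 were above the floor, and Gdf11 differed by 0.10, Inhbc by -0.07 and Lefty1 by -0.07 between osteogenic and normal medium. Among 7 measured receptors, 5 were lower in osteogenic medium and 2 equal, and the median was -0.18. Tgfbr2, the receptor that binds TGF-beta first, had levels of 10.05, 10.30 and 10.77 in osteogenic medium with DMSO, osteogenic and normal medium. It thus stepped down in the same order as Tgfb2 and Ltbp1, by -0.48 and then -0.24, and a second probe set gave -0.48 and -0.24. Tgfbr3, or betaglycan, the coreceptor that presents Tgfb2 to that receptor, stood at 7.71, 8.18 and 8.46, with differences of -0.28 and -0.47. The activin receptor Acvr2a was at -0.42 in osteogenic medium and 0.00 with DMSO, and another probe set gave -0.10 and 0.10. Tgfbr1, the signalling partner of Tgfbr2, was at -0.18 and 0.04, and another probe set gave -0.11 and 0.00.

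The 11 Smads and corepressors were all measured, with medians of -0.03 in osteogenic medium and 0.00 with DMSO. Smad7, the inhibitory Smad that TGF-beta induces, was higher by 0.36 in osteogenic medium and at -0.06 with DMSO. Smad3 was at -0.29 and 0.03, while its 2 other probe sets above the floor gave 0.00 in both comparisons. The corepressor Tgif1 was at -0.26 and -0.29. Pmepa1, a target that limits Smad signalling, was at 0.00 and -0.28. Its 2 other probe sets above the floor ran from -0.13 to -0.07 and from -0.30 to -0.07.

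Of the 9 measured genes of latency and activation, 2 were higher, 6 lower and 1 equal in osteogenic against normal medium, and 3 were higher, 4 lower and 2 equal with DMSO. Ltbp3, a further binding protein of latent TGF-beta, was at -0.53 in osteogenic medium and -0.30 with DMSO, and its other measured probe set gave -0.31 and -0.19. Itgb5, a partner of the alpha-v integrin, was at -0.45 and -0.27 with all 3 other probe sets below 0 too. Itgb8, whose alpha-v dimer activates latent TGF-beta, peaked in osteogenic medium as Tgfbi did. Its levels were 5.79, 6.36 and 5.63, and its differences 0.73 and -0.57, read by 1 probe set. Thrombospondin 1, encoded by Thbs1 and able to activate latent TGF-beta, was at 0.05 and -0.47, and its second probe set gave -0.12 and -0.33. The list medians were -0.12 and 0.00.

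Among 7 measured antagonists, Bambi, a pseudoreceptor that blunts TGF-beta and BMP signals, was the 1 gene of all lists past 2-fold. Its levels were 6.55 in osteogenic medium with DMSO, 6.00 in osteogenic medium and 4.87 in normal medium. It was thus 1.13 (2.19-fold) higher in osteogenic than in normal medium and 0.55 higher again with DMSO, in the order of media seen for Tgfb1. Follistatin, encoded by Fst and the main binder of activin, stood at 9.96, 10.54 and 10.22, with differences of 0.33 and -0.58, and its second probe set gave 0.28 and -0.63. Cd109, a TGF-beta coreceptor that limits signalling, was at 0.31 and -0.41, and its second probe set gave 0.51 and -0.36. Decorin, encoded by Dcn and able to bind TGF-beta in matrix, was at -0.39 and -0.22. For the antagonists, the median was 0.00 in osteogenic medium and -0.22 with DMSO.

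The other TGF-beta target genes did not share one shape. Of 14 measured, 7 were higher and 7 lower in osteogenic medium (median 0.00), and 4 were higher, 8 lower and 2 equal with DMSO, with a median of -0.12. Ccn2, the connective tissue growth factor, had levels of 8.43, 9.21 and 9.03 in osteogenic medium with DMSO, osteogenic and normal medium, and its differences were 0.19 and -0.78. Hmga2, a chromatin protein, was at 0.48 and -0.65, and its 2 other measured probe sets ran from 0.27 to 0.50 and from -0.97 to -0.57. Both were lower with DMSO, as Tgfbi was. Bhlhe40, a transcription factor, was at 0.69 and -0.15. The metalloproteinase Adam12 was higher by 0.50 in osteogenic medium and equal with and without DMSO.

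**Figure D4:**
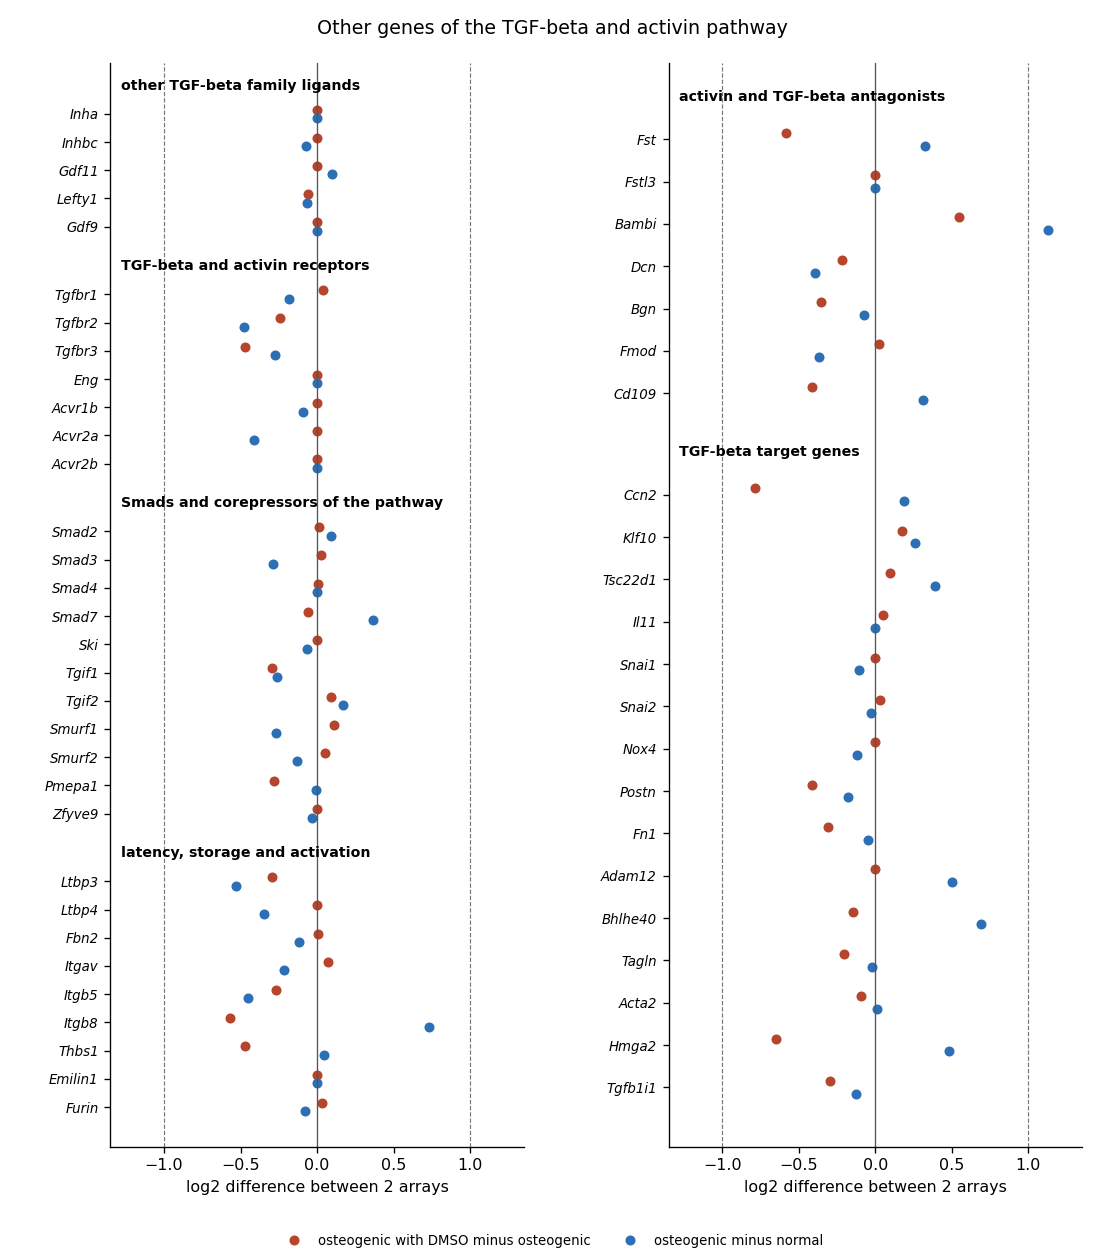
Log2 difference (horizontal axis) of the pathway genes outside the set that exceeded the floor on an array, for osteogenic medium with DMSO minus osteogenic medium (red) and osteogenic minus normal medium (blue). Dashed lines mark 2-fold. Bambi at 1.13 is the only point past them, and all measured receptors lie at or left of 0 for osteogenic minus normal medium.

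Genes with a pattern like that of Inhbb, the gene of the widest range, were sought by the distance between the pairs of main differences. The search took in 10798 others above the floor on all arrays and left out symbols made of clone, accession or model numbers. Genes under the floor on an array, as Inhbb was in normal medium, were thus not searched. The nearest 5 were C1qtnf3, Prss35, Dlx3, Lepr and Cgref1, at distances from 0.27 to 0.41 log2 units. C1qtnf3, a secreted protein of cartilage and bone, had differences of 1.80 and -0.10. Dlx3, a homeobox factor of osteoblasts, had 1.41 and 0.41, with a second probe set at 0.10 and 0.07. Lepr, the leptin receptor, had 2.00 and 0.21, with a second at 1.40 and 0.45. With 3 arrays and a bound for Inhbb itself, this likeness is a description only.

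Markers of the cells were read on the same arrays. Of 7 listed markers of the osteoblast lineage, 4 were measured, and these (Sp7, Alpl, Col1a1 and Ibsp) were above the floor on every array. Of 19 measured markers of other cell types, 7 were above it on all arrays, 1 on some and 11 on none. The macrophage gene Ptprc, the endothelial genes Pecam1 and Cdh5 and the adipocyte gene Adipoq were under the floor throughout. Another macrophage gene, Csf1r, was above it at 4.41 in both osteogenic media and 4.66 in normal medium. The muscle gene Des was at 5.06 on all 3 arrays. The endothelial gene Kdr was above the floor in normal medium only, at 3.66. The 4 osteoblast markers were higher in osteogenic than in normal medium, as Inhba and Inhbb were, by amounts that differed widely. Ibsp, a bone matrix protein, stood at 0.38 for DMSO within osteogenic medium and at 2.18 for osteogenic minus normal medium. Alpl, the alkaline phosphatase, stood at 0.71 and 1.70, the osteoblast factor Sp7 at 0.41 and 0.88, and the collagen gene Col1a1 at 0.18 and 0.04. The 0.04 of Col1a1 was under the scatter between probe sets of 0.18. The summed linear level of the 4 was 8032 in osteogenic medium with DMSO, 6747 in osteogenic medium and 5413 in normal medium. That sum was weighted to the brightest gene, Col1a1, at 12.50, 12.32 and 12.28 in the same order of media. Among chondrocyte markers, 1 of 3 was higher in osteogenic than in normal medium. Col2a1, a cartilage collagen, stood at 8.08 in osteogenic medium with DMSO, 8.01 in osteogenic medium and 7.16 in normal medium, Sox9 at 7.42, 7.52 and 7.52, and Acan was under the floor. The summed linear level of the 3 was 447.2 with DMSO, 447.9 in osteogenic medium and 333.0 in normal medium, and Col2a1 made up the difference. The part of either marker list in the values of the 9 genes was not tested. In a bulk sample, fewer cells of a type and less RNA per cell cannot be told apart.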

How the data were processed

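Total RNA was labelled as biotin cRNA and hybridised to Affymetrix mouse genome arrays, 1 per medium, per the labels' protocols. The authors deposited 1 table of 45101 probe sets, whose values from 0.652 to 13.4 are read as log2 intensities. For log base, summarisation and normalization, the sources used here give nothing. The array medians, 3.54, 3.57 and 3.54 in osteogenic medium with DMSO, osteogenic and normal medium, show that the arrays were on one scale, so a change in total RNA per cell would not be seen.

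The 64 control probe sets were left out. Of 45037 others, 34945 had 1 symbol in the platform annotation of 2016, 932 had several and 9160 had none here. All 21 symbols of the 9 genes equalled those of the GRCm38.p6 gene table. Levels under the floor, the 50th percentile of all values, were raised to it before differences were taken. A gene was counted at an absolute log2 difference of at least 1. Named were the 9 genes, up to 4 genes per pathway list with the largest difference in either main comparison, and the 5 genes nearest to the widest member. The marker genes named were picked after their values were seen. Members and lists were chosen with earlier results of these data known. Alternatives were another floor or none, the mean of probe sets, fewer probe sets, quantile and cyclic loess normalization, centring, a 1.5-fold threshold and leaving out equal values. Python 3.11.15, numpy 2.4.6, pandas 2.3.3, matplotlib 3.10.9, R 4.3.3 and limma 3.58.1 were used. The counting was tested on simulated data, on genes well above the floor that were given changes larger than the threshold. Changed genes near the floor, such as Inhbb, were not simulated.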

Additional observations from a re-analysis of the deposited data

How the results depend on the processing

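Of 189 recomputed differences of the 9 genes, 177 moved by less than the SD between probe sets and 12 by more. Many of them could not move, so the 177 is no measure of stability. Centring left every difference as it was, and another floor or none altered Inhbb alone. Leaving out probe sets ending in _s_at or _x_at altered Tgfbi alone, and the mean of probe sets could not alter Tgfb3 and Ltbp2, each read by 1. In sign, 1 differed from its original, Tgfb3 for osteogenic minus normal medium, at 0.0021 after quantile normalization against -0.02. The 2-fold count for osteogenic minus normal medium was 1, and 0 with the floor at the 60th percentile, where Inhbb stood at 0.69. For DMSO minus normal medium it was likewise 1, and 0 with that floor, where Inhbb stood at 0.80. At 1.5-fold the counts were 4 for osteogenic minus normal medium, 3 for DMSO within osteogenic medium and 5 for DMSO minus normal medium. The medians of the 9 genes moved by less than the SD between probe sets under every alternative run. With the mean of all probe sets, Inhba stood at 0.47 and Ltbp1 at -0.20 for osteogenic minus normal medium, since that mean takes in probe sets under the floor. Inhbb, whose second probe set is above the floor, then stood at 1.03 for osteogenic minus normal medium and 1.16 for DMSO minus normal medium. Without probe sets ending in _s_at or _x_at, Tgfbi stood at 0.54 and -0.63 in the main comparisons. No paired analysis was possible because each group had 1 array. No array could be left out for the same reason, and dim genes near the floor, such as Inhbb in normal medium, are limited by signal over background.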

Other observations

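Among the marker genes, Cdh1 was highest in osteogenic medium, as Tgfbi and Ltbp2 were, and it was singled out after its value was seen. Other genes had such a shape too, among them Angpt4, which stood at -1.16 with DMSO. Cdh1, which encodes the adhesion protein E-cadherin of epithelial cells, had a log2 level of 3.55 in osteogenic medium with DMSO, 4.87 in osteogenic medium and 3.87 in normal medium. With DMSO it stood at -1.32 against osteogenic medium, from 1 probe set near the floor. The other epithelial markers did not share this. Krt8, a keratin, was at 3.58 on all 3 arrays and Epcam at 4.41, 4.48 and 4.53.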
